A study of Mus musculus with 41 samples.

Results

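The DNA of 14 mouse mesotheliomas was read along chromosome 4 in bins of 20 kb, with the bins that hold Mtap, Cdkn2a and Cdkn2b at the centre. All 7190 bins of chromosome 4 were taken, of 122257 bins in the table, and each tumor was centred on its median autosomal bin, so that 0 is the value of a typical autosomal bin of that tumor and -1 on the log2 scale is 50% of it. Whether the deposited values are read depths or ratios to normal tail DNA was not settled. Depth is used for whichever of these the table holds, and if they are ratios, a change that the tail DNA also carried would not show. A value in every tumor was present in 7143 of the 7190 bins. The interval from 89.0 to 89.6 Mb (mm10; chr4:89000001-89600000) has room for 30 bins, of which the table lists 28, and 27 had values in every tumor.

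The tumors came from mice with conditional alleles of Nf2, and in 10 of the labelled DNA samples also of Bap1 (BNC), whereas the other 4 had intact Bap1 (NC). Both groups carried the Cdkn2ab allele. The study describes Ink4a and Ink4b in these mice as deleted in the germline, and p19Arf as conditional. No tumor with an intact locus was therefore available for comparison. The conditional alleles were recombined in young adult mice by an adenovirus with Cre under the CMV promoter, injected into the pleural space of animals that received cyclosporine A in drinking water around the injection. The mice had a mixed FVB, Bl6 and 129Ola background. The CMV promoter is not restricted to mesothelial cells, and a piece of tumor can also hold cells that the virus did not reach. A drawing of the Cdkn2ab allele in the study, without genome coordinates, places a loxP site between Cdkn2b and exon 1beta of Cdkn2a, another between exon 1alpha and exon 2, and a mark labelled TAG in exon 2. In its drawing after Cre, exon 2 remains, and neither the exons 1beta and 1alpha nor those of Cdkn2b are shown. The names of the DNA columns give a tumor number but not a genotype, so BNC and NC tumors were not compared. B20 and B21 share a longer number in their names, and 13 such numbers cover the 14 columns, so this pair was also entered as 1 averaged value. Whether the other tumors came from separate mice is not stated. The p-values refer to the spread between these tumors, which limma moderates by the spread of all bins tested.

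Cdkn2a is unusual in that it encodes a pair of unrelated tumor suppressors. Transcripts that begin at exon 1alpha encode p16Ink4a, an inhibitor of the cyclin D-dependent kinases, and transcripts that begin at exon 1beta encode p19Arf, which stabilizes p53 by binding Mdm2. Both continue into the same exon 2, read in different frames. Cdkn2b, its neighbor, encodes p15Ink4b, a close relative of p16Ink4a, and Mtap, on the other side, encodes methylthioadenosine phosphorylase, an enzyme of polyamine and methionine metabolism. In human mesothelioma the locus is a frequent site of deletion, and MTAP is often lost together with CDKN2A.

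In the GENCODE annotation of GRCm38 (mm10) Mtap lies on the plus strand at chr4:89137122-89181081, and Cdkn2a and Cdkn2b lie on the minus strand at chr4:89274471-89294653 and chr4:89306299-89311039. The gap between Mtap and Cdkn2a is 93389 bp, and that between Cdkn2a and Cdkn2b is 11645 bp. No other protein-coding gene lies within the interval, and the nearest outside it are Ifne on the Mtap side and Dmrta1 beyond Cdkn2b. A bin edge falls inside Cdkn2a. Exons 2 and 3 lie in the bin chr4:89260001-89280000, exons 1alpha and 1beta in chr4:89280001-89300000, and all of Cdkn2b in chr4:89300001-89320000. The first coding sequences of the 3 proteins, all of which lie in the last 2 of these bins, are shown because those bins had the lowest depth of the interval. They are taken from the GRCm38 genome sequence of RefSeq at the exon positions of GENCODE, minus strand, 5′ to 3′, with the start codon in capitals. They are the coding parts of exon 1beta (chr4:89294334-89294523, 190 bases), exon 1alpha (chr4:89281986-89282111, 126 bases) and exon 1 of Cdkn2b (chr4:89310666-89310797, 132 bases).
Cdkn2a exon 1beta: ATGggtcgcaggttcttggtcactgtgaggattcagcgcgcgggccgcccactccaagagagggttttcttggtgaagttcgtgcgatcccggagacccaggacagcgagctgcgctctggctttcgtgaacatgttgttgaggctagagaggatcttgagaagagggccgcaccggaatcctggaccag
Cdkn2a exon 1alpha: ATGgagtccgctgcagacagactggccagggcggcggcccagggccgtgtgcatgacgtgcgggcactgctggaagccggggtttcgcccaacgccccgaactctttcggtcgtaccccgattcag
Cdkn2b exon 1: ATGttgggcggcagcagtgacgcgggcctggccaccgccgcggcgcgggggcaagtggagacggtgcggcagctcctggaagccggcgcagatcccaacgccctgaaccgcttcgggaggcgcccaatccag
Their GC content was 58.9% in exon 1beta, 67.5% in exon 1alpha and 72.7% in exon 1 of Cdkn2b, while the bins around them had 43.5% and 35.9%. The table is corrected for GC content by the authors over whole bins.

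1 tumor, B5, stood apart from the others. It had the largest bin-to-bin SD, 0.155, against 0.110 to 0.138 in the other 13 tumors, and it departed most from the other tumors along chromosome 4. Values without B5, a choice made after seeing the data, are given for the exon 1 bin of Cdkn2a and the Cdkn2b bin. With a bin-to-bin SD near 0.13, a single bin of a single tumor is known only to about that error, and a value was called low in 1 tumor when its local difference was more than 3 robust SD below 0. The local difference is the value of a bin minus the median of the bins of the same chromosome 300 to 1500 kb away, and 3 robust SD came to between 0.343 and 0.487 in the tumors. Of all autosomal bin values, 0.873% were that low.

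The Cdkn2b bin had the lowest depth of the interval. Its centred log2 value was -1.66 in the lowest tumor (B21), -0.99 in the median and -0.065 in the highest (B5), which corresponds to 31.6%, 50.2% and 95.6% of the depth of a typical bin. Apart from B5, the 13 tumors lay between -1.66 and -0.60, with B31 and B2 the least reduced at -0.60 and -0.73. The mean local difference was -0.99 (SE 0.069, n = 14, adjusted p = 3.2e-12, limma with Benjamini-Hochberg adjustment over 114213 autosomal bins), and 13 of 14 tumors were more than 3 robust SD below 0. In B5 it was -0.099, within the noise of that tumor. Without B5 the mean was -1.05 (adjusted p = 1.47e-17, limma).

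The bin with exons 1alpha and 1beta of Cdkn2a was also low, but less so. Its centred value was -1.43 in the lowest tumor (B21), -0.63 in the median and -0.054 in the highest (B23), or 37.0%, 64.7% and 96.3% of typical depth. The mean local difference was -0.67 (SE 0.065, n = 14, adjusted p = 1e-08, limma), and 12 of 14 tumors were below the 3 SD line. The exceptions were B23 and B16, at local differences of -0.082 and -0.23, and both of these tumors were low in the Cdkn2b bin, at -0.96 and -1.07. B5 showed the opposite order, with -0.59 in the exon 1 bin and -0.099 in the Cdkn2b bin. Over the 14 tumors the Cdkn2b bin was the lower of the pair in 13, by a median of 0.29, and B5 was the exception. Without B5 the mean local difference of the exon 1 bin was -0.68 (adjusted p = 1.34e-09, limma).

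The bin with exons 2 and 3, which both Cdkn2a proteins share in part, was reduced by much less. Its centred value was -0.48 in the lowest tumor (B21), -0.14 in the median and 0.050 in the highest (B19). The mean local difference was -0.16 (SE 0.037, adjusted p = 0.0116, limma), and only B21 passed the 3 SD line. An exact sign-flip permutation test of this bin, adjusted over all bins, gave p = 0.0831, so the 0.05 level was passed in only one of these tests, and the mean did not reach the -0.5 required for a call. In the same exact permutation test the exon 1 bin and the Cdkn2b bin each had an adjusted p = 0.023. The local differences of both were below 0 in every tumor, so this is the lowest value the test could give and does not rank them.

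**Figure D1:**
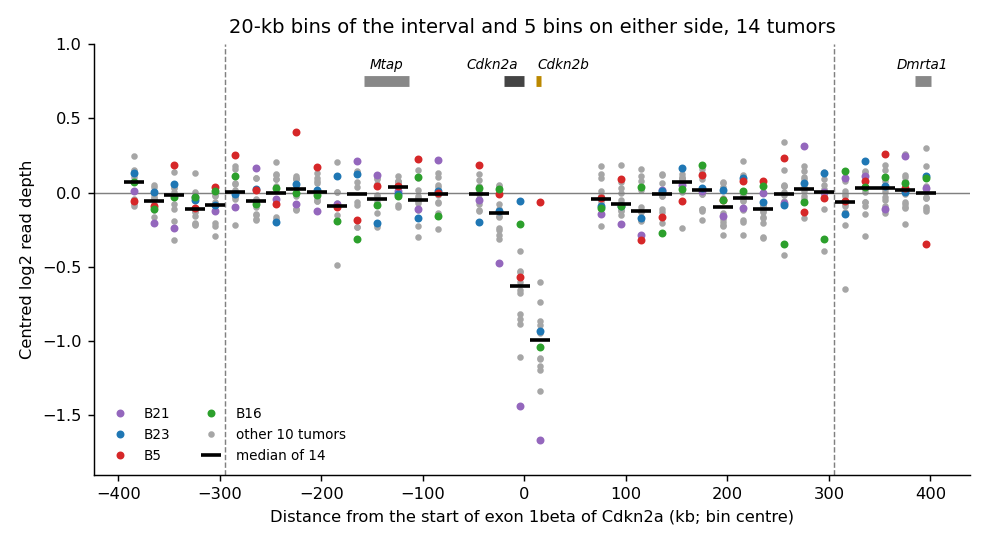
Centred log2 read depth of each 20-kb bin (points, 1 per tumor; black bars, median of 14 tumors) against the distance of the bin centre from the start of exon 1beta of Cdkn2a in kb; dashed lines mark the interval and thick bars the genes. The medians of the exon 1 bin (-0.63) and of the Cdkn2b bin (-0.99) lie below those of the other bins, which are between -0.14 and 0.073.

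**Figure D2:**
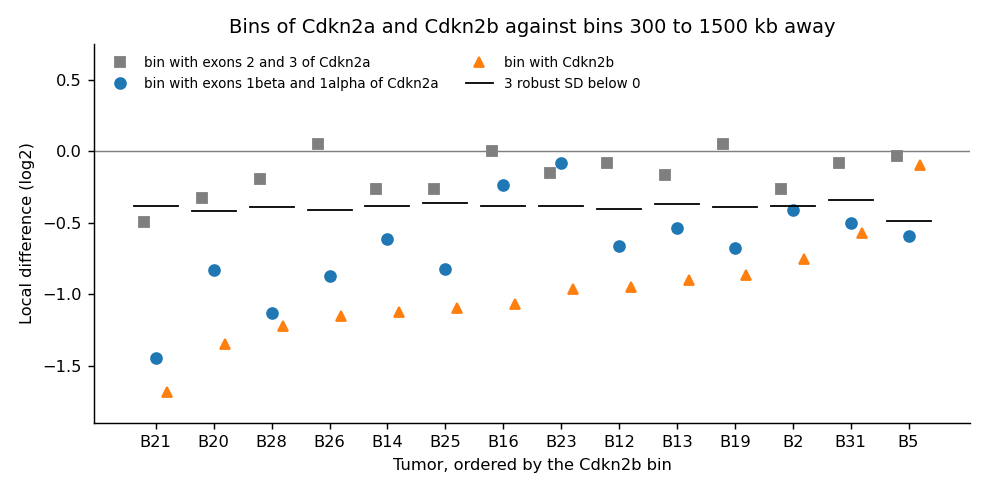
Local difference (log2) of the 3 bins of Cdkn2a and Cdkn2b in each tumor, ordered by the Cdkn2b bin, with the line 3 robust SD below 0 of that tumor. The Cdkn2b bin is below the line in 13 tumors and the exon 1 bin in 12, and the exons 2 and 3 bin in B21 alone.

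B21 had the lowest depth in all 3 bins of the genes. B20, whose name shares a number with it, was next in the Cdkn2b bin at -1.33 and in the exons 2 and 3 bin at -0.32. In the exon 1 bin B20 was at -0.82, and B28 (-1.11), B26 (-0.89) and B25 (-0.85) were lower. With B20 and B21 averaged, the mean local differences were -0.94 in the Cdkn2b bin and -0.64 in the exon 1 bin. As tumor DNA of 1 piece was read as a whole, the number of alleles lost and the share of cells with a loss cannot be told apart from these values alone, nor can an inherited change and one made by Cre. How much of a 20-kb bin a deletion covers is also unknown. Cdkn2b spans 4741 bp, and exons 1beta and 1alpha together span 12668 bp. A depth can therefore not be read as a share of alleles or of cells.

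As 1 value per tumor, the mean of the 3 bins that overlap Cdkn2a or Cdkn2b was compared with the median of the other 24 bins of the interval. The difference was -0.58 ± 0.24 (SD, n = 14), from -1.15 in B21 to -0.25 in B5, and below 0 in 14 of 14 tumors. The exact sign-flip permutation test (two-sided) gave p = 0.000122, the smallest value that 14 tumors allow, and an adjusted p = 0.000366 over the 3 tests of the interval. Without the exons 2 and 3 bin the mean difference was -0.80, and with B20 and B21 averaged it was -0.55.

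The Mtap bins showed no such reduction. 4 bins overlap the gene, and their medians over tumors were -0.013, -0.044, 0.038 and -0.048 from the first exon on. None passed the test (adjusted p = 0.472 to 0.805, limma), and no tumor was more than 3 robust SD below 0 in any of them. The mean of the Mtap bins minus the median of the 20 bins that overlap none of the 3 genes was -0.0026 ± 0.084 (SD, n = 14), from -0.18 in B28 to 0.12 in B21. It was below 0 in 8 of 14 tumors, with an adjusted p = 0.907 in the exact permutation test. B26, at 0.119, was next to B21 in this difference, and by the centred level alone the Mtap bins were highest in B13, at 0.093.

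Beyond the 3 bins of Cdkn2a and Cdkn2b, the medians of the other 24 bins of the interval were between -0.13 and 0.072, single values between -0.49 and 0.41, and 0 of the 24 bins were called. As 0.202% of all autosomal bins were called as losses and 0.0989% as gains, a count of 0 in so few bins is near the background and is no result about them. In 2 of them, chr4:89100001-89120000 and chr4:89580001-89600000, 1 tumor was more than 3 robust SD below 0, beside a background of 0.873% of single values. On the far side of Cdkn2b the next bin is not listed in the table and the one after it, chr4:89340001-89360000, has no value, so the outer border of the low stretch cannot be placed closer than chr4:89360001-89380000, where the median was -0.042. On the Mtap side the bin chr4:89240001-89260000 was at -0.0074. The whole interval, as the median of its bins, was 0.043 lower than the median of 140 neighboring bins up to 1500 kb away (mean -0.043 ± 0.035, SD, n = 14; adjusted p = 0.00183, exact permutation test). The bins of the interval here include the 3 of Cdkn2a and Cdkn2b, and the interval without those 3 was not compared. The interval was lower in 13 of 14 tumors, and B13 at 0.035 was the exception. The size of this difference depended on the setting. As the mean over bins it was -0.0871. Without the 5% of bins with the largest SD, which leaves out the exon 1 bin and the Cdkn2b bin, it was -0.0264.

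Along the whole of chromosome 4 the level was near that of the other autosomes in every tumor. The median bin of chromosome 4 was -0.017 in the lowest tumor (B5), -0.0053 in the median and -0.0012 in the highest (B23). The mean was -0.0069 ± 0.0050 (SD, n = 14) and below 0 in 14 of 14 tumors (adjusted p = 0.000464 over 19 autosomes, exact permutation test). Centred on the mean instead of the median autosomal bin, it was -0.0001 (adjusted p = 0.975), and as the mean instead of the median over the bins of chromosome 4 it was -0.0231 (adjusted p = 0.000331), both by the exact permutation test. Its size depends on both choices and its call on the centring. Chromosomes 5, 7, 10 and 11 were also below 0 in 14 of 14 tumors. Of the 266 chromosome medians of the 14 tumors, 1.88% were more than 0.1 from 0, and none of these was on chromosome 4. They were on chromosomes 17 and 19, with 0.16 on chromosome 17 in B25 and 0.30 on chromosome 19 in B28 as the highest of each.

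Mouse chromosome 4 is acrocentric, so a proximal and a distal part, split at the middle of its length, were used in place of arms. The proximal part was higher than the distal part in 14 of 14 tumors, by 0.031 ± 0.0089 (SD), from 0.016 in B5 to 0.045 in B26 (p = 0.000122, exact permutation test, the smallest it can give). In the median tumor it was 0.035 on chromosome 4, 0.027 on chromosome 5 and -0.019 on chromosome 7. The proximal part was higher in 14 of 14 tumors also on chromosomes 2, 5, 8, 10 and 15, and lower in all of them on chromosomes 7 and 17. In 10-Mb windows, 0 of the 224 values of chromosome 4 were more than 0.1 from 0, against 1.1% of the windows of all autosomes. The windows from 110 Mb on were below 0 in 14 of 14 tumors, with medians of -0.043, -0.030, -0.060, -0.045 and -0.029. The window with Cdkn2a and Cdkn2b, from 80 to 90 Mb, was between -0.013 and 0.040.

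B5 departed from this shared profile. It was at -0.084 from 60 to 70 Mb and -0.055 from 70 to 80 Mb, where the median tumor was at 0.017 and 0.023. It was at 0.040 in the window of Cdkn2a and Cdkn2b, the highest of the 14 tumors. The largest departure from the median of a window was 0.10 in B5 and between 0.012 and 0.036 in the other 13 tumors. In 5-Mb windows 4 values were more than 0.1 from 0, at -0.11 in B5 from 65 to 70 Mb and, from 110 to 115 Mb, at -0.21 in B5, -0.12 in B14 and -0.10 in B28.

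**Figure D3:**
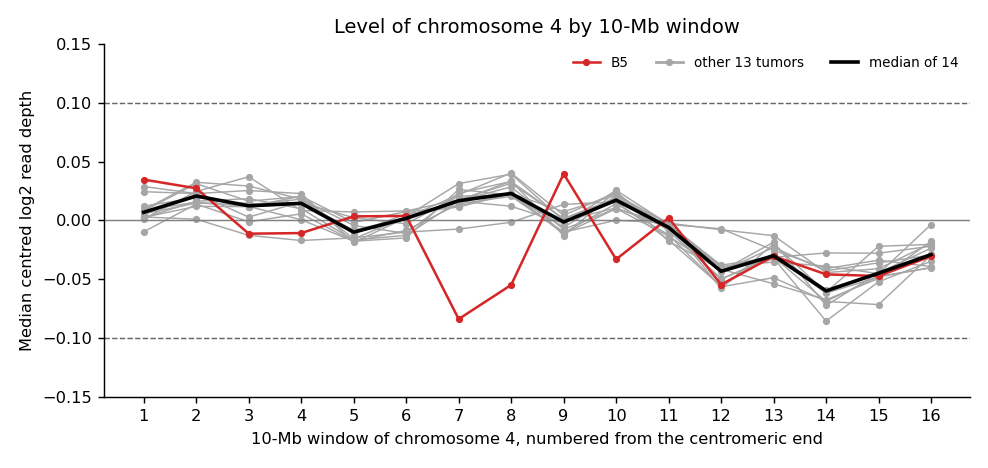
Median centred log2 read depth of chromosome 4 in 16 windows of 10 Mb, numbered from the centromeric end, in 14 tumors (B5 in red, the other 13 in grey, median in black); dashed lines are at 0.1 and -0.1. All values stay between these lines, and windows 12 to 16 are below 0 in every tumor.

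How much the 2 low bins of the interval stood out was read against all bins. Across the autosomes, 231 of 114213 bins (0.202%) were called as losses, with a mean local difference below -0.5 and an adjusted p under 0.05 (limma), and 113 (0.0989%) as gains above 0.5. On chromosome 4 these were 50 of 7143 bins (0.7%) and 24 bins (0.336%). Loss and gain here name a depth below or above that of the neighboring bins. Whether a called bin was changed in the tumors or differed by inheritance in mice of mixed background was not tested. The counts of losses depended on the settings. Across the autosomes they were 507 beyond 0.3, 63 beyond 1 and 12 without the 5% of bins with the largest SD. On chromosome 4 they were 82, 22 and 0. The exon 1 bin and the Cdkn2b bin, at -0.67 and -0.99, did not reach the cut of 1. Both were among the bins left out in the last setting. The interval held 2 of the 50 losses and 0 gains. By mean local difference the Cdkn2b bin ranked 24 from the lowest on chromosome 4 and 66 among autosomal bins, and the exon 1 bin ranked 43 and 157. At least 12 tumors were more than 3 robust SD below 0 in 84 autosomal bins (0.0735%), of which 29 were on chromosome 4.

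Of the other 48 losses on chromosome 4, 45 lay in the span of the Skint genes, chr4:111919392-114245028, where 11 protein-coding members are annotated. Skint1, the founding member, is an immunoglobulin superfamily gene needed for the maturation of a population of skin gamma-delta T cells. The stretches of called losses overlap Skint2, Skint4, Skint5, Skint6 and Skint11, and Skint1 was not among these genes. In the called bins of this span the tumors fell into 3 sets of levels. B5, B14 and B2 had medians of -3.59, -2.81 and -2.70, or 8.31%, 14.3% and 15.4% of typical depth. 9 tumors lay between -0.86 and -0.77, and B31 and B25 were at -0.005 and -0.0009. The lowest bin, chr4:113300001-113320000, reached -7.11 in B14 and was at 0.12 in B25. This region was singled out after its values had been seen, so its levels are a description. Whether they were inherited or arose in the tumors was not tested. In the Cdkn2b bin the same sets did not separate, with -0.065, -1.11 and -0.73 in B5, B14 and B2 and -0.60 and -1.12 in B31 and B25.

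**Figure D4:**
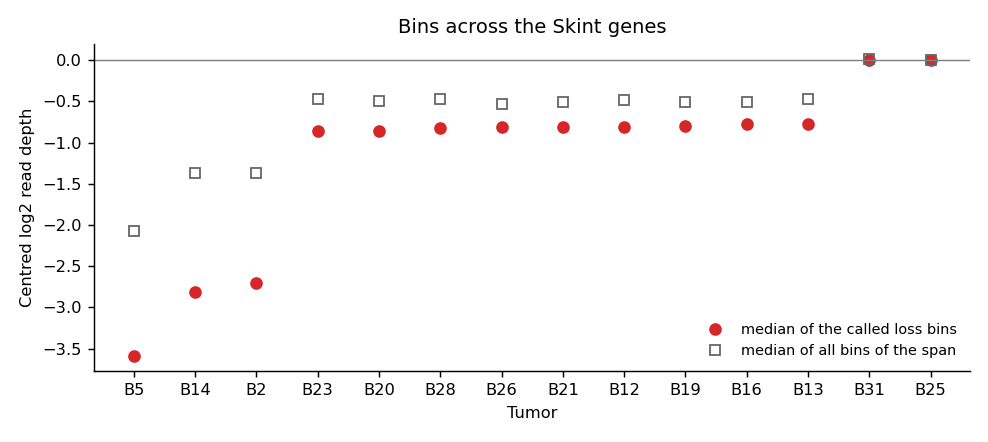
Centred log2 read depth of the bins across the Skint genes in each tumor, as the median of the called loss bins (red) and of all 86 bins of the span with values (open squares). B5, B14 and B2 are lowest, 9 tumors are near -0.8 in the called bins, and B31 and B25 are near 0.

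The remaining bins named by rule, the 5 lowest and the 5 highest calls outside the interval, were mostly of the same kinds. 4 of the 5 lowest lay in the Skint span, and the other, chr4:121960001-121980000, overlaps no coding gene and was low in every tumor, lowest in B5 and at -0.97 in the highest, B31 (mean local difference -1.59, SE 0.099, adjusted p = 1.74e-13, limma). Of the 5 highest, 4 lay in chr4:146500001-146540000 and chr4:147500001-147540000, and 3 of them overlap Zfp982 or Zfp981, genes of the zinc finger family. The highest, chr4:147500001-147520000, was at 1.36 in the lowest of the 14 tumors and 1.68 in the median (mean local difference 1.69, SE 0.039, adjusted p = 2.3e-25, limma). The fifth, chr4:31560001-31580000, was between 1.17 and 1.60. The exon 1 bin and the Cdkn2b bin each varied more between tumors than 99.6% of autosomal bins, by the SD of the local difference.

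**Figure D5:**
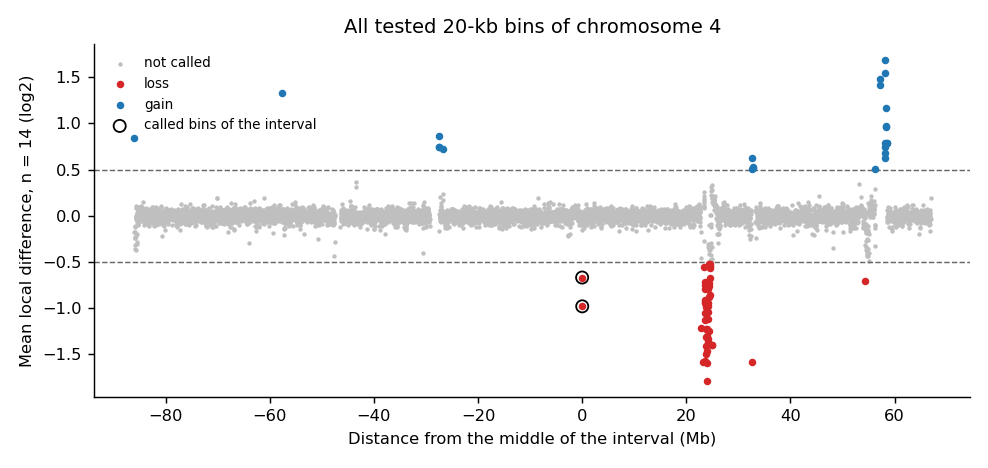
Mean local difference over 14 tumors (log2) of the 7143 tested bins of chromosome 4 against their distance from the middle of the interval in Mb; losses in red, gains in blue, dashed lines at -0.5 and 0.5. The 2 called bins of the interval (circled, -0.67 and -0.99) stand alone among their neighbors, and 45 of the 50 losses form the Skint cluster on the right.

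A list of 32 genes of chromosome 4, with known tumor suppressors and oncogenes and the neighbors of the locus, was read in the same way. All 32 had a bin. Apart from Cdkn2a and Cdkn2b, none of the 30 other genes overlapped a called bin, which is near the background of 0.202% of bins called as losses and 0.0989% as gains and is no result about these genes. Their median levels were between -0.11 and 0.043. Cdkn2c, which encodes the related inhibitor p18Ink4c, was at -0.035 in the median tumor, from -0.25 in B21 to 0.24 in B12. Ifnb1 and Klhl9, near Cdkn2a on the Mtap side, were at -0.0072 and -0.024, and Dmrta1 was at 0.036. Among proto-oncogenes Jun was at -0.055 and Mycl at -0.073, and among tumor suppressors Arid1a was at -0.022. The lowest single tumor value of the 30 genes was -0.29 (Tusc1 in B5).

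RNA of 9 tumors (labelled as 5 BNC and 4 NC) and 6 tumor cell lines (3 BNC and 3 NC) was counted by the authors in a second table. The libraries had 8158740 to 23936922 counts. The names of the tumor RNA columns give no genotype either, so these tumors were used as 1 group. The tumor library B1 was the shallowest and stood apart with a TMM factor of 0.476, against 0.863 to 1.18 in the other 14. Cdkn2b had at most 3 counts in all 15 libraries, which was the floor of 3 counts set here, so it was not detectable at this depth. Cdkn2a was between 0.47 and 7.93 CPM (TMM-scaled) in the tumors, with a median of 3.99, and between 0.092 and 0.56 CPM in the lines. The counts were 3 to 138 per tumor and 2 to 12 per line, so some of these libraries were at or below the floor. A count over the gene does not separate the p16Ink4a and p19Arf transcripts. Mtap was between 22.2 and 129 CPM in the tumors and between 130 and 569 CPM in the lines, so it was read in every library.

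5 tumor numbers, B2, B13, B14, B19 and B28, occur in both tables, although no label states that they are the same tumors. Their Cdkn2a bin with exons 1alpha and 1beta was at -0.40, -0.53, -0.60, -0.68 and -1.11. Cdkn2a mRNA was 5.27, 1.49, 4.13, 0.90 and 6.38 CPM in the same order, so the tumor with the lowest depth had the highest mRNA of the 5. Mtap mRNA was 25.7, 31.1, 63.4, 24.8 and 129 CPM, with Mtap bins between -0.10 and 0.093.

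The tumor RNA held genes of other cell types. Of 5 leukocyte markers, 4 or 5 had over 3 counts in each tumor, and their summed level was 246 to 780 CPM, with Ptprc between 74.3 and 222 CPM. In the lines none of the 5 had over 3 counts, and the sum was at most 0.19 CPM. In B2, B13, B14, B19 and B28 the sum was 532, 474, 780, 498 and 324 CPM. Both endothelial markers, Pecam1 and Cdh5, had over 3 counts in every tumor. The mesothelial markers were present, with 9 or 10 of 10 over 3 counts in each tumor, Msln between 44.0 and 1540 CPM and Calb2 at 0 in the median tumor. Sftpc, a gene of lung epithelium, reached 12875 CPM in B2, and the muscle gene Des was between 126 and 10781 CPM. The part of these cells in the depth of the Cdkn2a and Cdkn2b bins and in the Cdkn2a counts was not tested.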

How the data were processed

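Genomic DNA of frozen tumors was sequenced at low coverage with single-end reads. As the methods of the study and the labels state, the authors aligned reads to mm10 with BWA 7.10 and counted them in 20-kb bins with CopywriteR, adapted for low coverage, with correction for GC content and mappability. The deposited score is on a log2 scale. The methods describe ratios to normal tail DNA, whereas the table is named for log2 read counts, and this was not settled here. Bins without reads carry a placeholder that was set to missing, and the reads per bin are unknown. RNA reads were mapped with TopHat and deposited as counts per Ensembl gene from HTSeq. Columns of per-sample values left unused numbered 0.

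Members, gene lists and tests were chosen with earlier results of these data known. The genes named were those of the interval, its neighbors and a list of chromosome 4 genes, and the bins named outside the interval were the 5 lowest and 5 highest calls. Each tumor was centred on its median autosomal bin. Local differences (at least 20 neighbors) were tested by a one-sample moderated fit in limma 3.58.1 under R 4.3.3. They were called beyond 0.5 at a Benjamini-Hochberg adjusted p under 0.05. The fit was first tested on simulated data with normal noise and the same change in every tumor. Bins whose change varies between tumors were not simulated. Values per tumor were tested by exact sign-flip permutation. CPM values were TMM-scaled with edgeR 4.0.16. Alternatives were other neighbor distances, thresholds, centrings, window sizes, without the 5% of bins with the largest SD, and leave-one-out. Figures were drawn with matplotlib 3.10.9.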

Additional observations from a re-analysis of the deposited data

How the results depend on the processing

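No paired analysis was possible because the DNA columns carry no replicate numbers and no groups were compared. Leaving out each tumor in turn, the Cdkn2a and Cdkn2b bins were -0.61 to -0.54 against the rest of the interval, the interval -0.049 to -0.039 against its neighbors, chromosome 4 -0.0073 to -0.0061, and the proximal minus distal part 0.030 to 0.032, all past the threshold. The Mtap difference was -0.012 to 0.011 and turned above 0 without B23 (0.0034), B28 (0.011), B2 (0.0036), B12 (0.0005) or B16 (0.0006), in no case past the threshold. Losses across the genome were 507 beyond 0.3, 63 beyond 1 and 12 without the 5% of bins with the largest SD, and on chromosome 4 they were 82, 22 and 0. The exon 1 and Cdkn2b bins are themselves among the bins left out in the last setting. Gains were 42 beyond 1 and 69 without those bins, and on chromosome 4 they were 6 beyond 1. The chromosome 4 level was -0.0001 when centred on the mean autosomal bin (adjusted p = 0.975, exact permutation test), and the cause was not tested. In 5-Mb windows 4 values of chromosome 4 were beyond 0.1. Averaging B20 and B21, leaving out B5 from the test across bins and leaving out the exons 2 and 3 bin were chosen after seeing the data. The exact sign-flip permutation test per bin took the exons 2 and 3 bin from an adjusted p = 0.0116 (limma) to 0.0831, and the cause was not tested. The other settings kept direction and side of the threshold, but some moved a value by over 1.5 times. As means over bins, the interval was -0.0871 against its neighbors, chromosome 4 -0.0231 and the proximal minus distal part 0.0545, and between the outer parts of the chromosome alone the last was 0.047. Without the 5% of bins with the largest SD the interval was -0.0264. The lowest of the Cdkn2a and Cdkn2b bins was at -0.996, and the Mtap bins were at -0.0278 against bins outside the interval. The reads behind a bin are unknown, so no counting interval can be given.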

Other observations

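A bin outside the rule for named bins was read after its values had been seen. The bin chr4:62500001-62520000, which overlaps Alad, the second enzyme of heme synthesis, and Hdhd3, was called as a gain and lay between 0.89 and 1.08 in 10 tumors. It was at 0.45 in B26, 0.006 in B28, -0.15 in B25 and -0.21 in B31.

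The called gain bins of chr4:121980001-122060000, which overlaps no coding gene, divided the tumors into the same sets as the Skint span. B25 and B31 were highest, at 1.04 and 0.98, B2, B14 and B5 lowest, at 0.017, -0.12 and -0.14, and the other 9 tumors lay between 0.52 and 0.65. Both stretches were chosen from these values, and the overlap of the sets was not tested.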
